A study of Arabidopsis thaliana with 6 samples.

Results

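The genes described here lie around the centromere of chromosome 2 (Chr. 2) of *Arabidopsis thaliana*. They are all genes of Chr. 2 in the deposited tables with a start between 2.0 and 7.0 Mb, without those that start between 3.2 and 3.6 Mb. The rule found 1063 of the 32243 listed genes, and 218 of them (20.5%) were expressed, defined as at least 10 counts summed over the 6 libraries. The question was how the RNA output of this region differed between *flpl1* and Col-0, and whether it differed in the same way as that of the rest of Chr. 2, which has 4097 listed genes of which 2945 (71.9%) were expressed. The 128 genes of the left-out stretch (12 expressed) were not used.

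A centromere of *Arabidopsis* is built of satellite repeats flanked by pericentromeric heterochromatin, a compact and DNA-methylated chromatin rich in transposons and poor in genes. Small RNAs, DNA methyltransferases and chromatin remodelers keep transposons in it silent, while scattered genes inside it can be active. The stretch left out of the region holds a copy of the mitochondrial genome, whose reads cannot be separated from those of the mitochondria.

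The mutant libraries came from *flpl1* (C30-81-as6), a late-flowering, petioleless line raised from Col-0 seeds treated with carbon ions, which has an additional chromosome with Chr. 2 material. It was compared with Col-0, the accession it was raised from. RNA-seq was made from fully mature leaves of 3 plants of each, all of the same age, with 1 library a plant. *flpl1* is a single line, and its plants were picked by phenotype and by their DNA content in flow cytometry. Libraries held 19465078 to 24633070 counts on genes, of which 16088437 to 20768123 lay on chromosomes 1, 3, 4 and 5, called the other chromosomes below. Leaf genes were high (*RBCS1A*, which codes for the small subunit of Rubisco, had 11470 to 16820 FPKM in *flpl1*, against 3225 to 4941 FPKM in Col-0), and the root gene *PHT1;1* and the seed genes *CRU1* and *CRU3* were at 0 in each library. In bulk leaf RNA, fewer cells of a type and less RNA per cell cannot be told apart. The counts of each library were divided by their sum over the other chromosomes, so that an added Chr. 2 does not enter the scale. On this scale the median *flpl1* to Col-0 ratio of the genes of the other chromosomes was 0.895 (−0.16 on the log2 scale), and ratios relative to that median are given where the scale matters. FPKM values are scaled to all counts of a library, Chr. 2 included, so fold changes were computed from the counts.

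For 5 of the genes with large changes or a high level, chosen after their values were seen, the 250 bases before the annotated gene start are shown, from the RefSeq annotation of TAIR10.1 and on the strand of the gene. Capitals mark matches on either strand to 5 motifs known from plant promoters: the W-box core TTGAC bound by WRKY factors, the as-1 core TGACG bound by TGA factors, the G-box CACGTG, the evening element AAATATCT of clock-controlled genes, and the I-box GATAAG of light-regulated genes. The W-box and as-1 cores can overlap. AT2G10940 and *AGP9* rose in *flpl1*, and the other 3 genes fell.
AT2G10940 (chr2:4312163-4312412, minus strand): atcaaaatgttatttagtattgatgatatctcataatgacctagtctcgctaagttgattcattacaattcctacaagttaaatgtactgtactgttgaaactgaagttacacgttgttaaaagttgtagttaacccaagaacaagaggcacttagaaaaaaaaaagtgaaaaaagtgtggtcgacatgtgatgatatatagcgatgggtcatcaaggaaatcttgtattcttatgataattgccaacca
*AGP9* (chr2:6399155-6399404, plus strand): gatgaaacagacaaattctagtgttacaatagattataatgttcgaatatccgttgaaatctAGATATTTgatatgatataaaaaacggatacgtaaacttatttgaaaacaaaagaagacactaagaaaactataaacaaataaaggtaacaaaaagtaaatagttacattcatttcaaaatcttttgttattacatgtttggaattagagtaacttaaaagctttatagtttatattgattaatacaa
AT2G05540 (chr2:2032904-2033153, plus strand): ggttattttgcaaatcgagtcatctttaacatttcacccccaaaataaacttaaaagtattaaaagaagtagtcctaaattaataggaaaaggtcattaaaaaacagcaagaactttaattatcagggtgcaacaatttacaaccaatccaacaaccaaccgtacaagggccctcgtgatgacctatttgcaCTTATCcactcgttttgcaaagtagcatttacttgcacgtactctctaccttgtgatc
AT2G15960 (chr2:6946846-6947095, plus strand): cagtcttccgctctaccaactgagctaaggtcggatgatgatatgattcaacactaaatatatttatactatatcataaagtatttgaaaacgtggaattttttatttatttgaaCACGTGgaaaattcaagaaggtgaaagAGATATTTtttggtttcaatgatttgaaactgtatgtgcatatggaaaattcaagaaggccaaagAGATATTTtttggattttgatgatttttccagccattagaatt
*MEE14* (chr2:6922162-6922411, minus strand): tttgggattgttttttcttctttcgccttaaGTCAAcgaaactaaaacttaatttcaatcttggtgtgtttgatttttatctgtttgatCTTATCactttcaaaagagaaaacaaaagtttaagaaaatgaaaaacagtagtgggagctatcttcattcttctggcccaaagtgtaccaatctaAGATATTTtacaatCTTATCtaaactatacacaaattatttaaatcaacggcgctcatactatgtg

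The window of AT2G10940, which had the largest rise, held none of the 5 motifs. The window of *AGP9* had 1 evening element at position −188 from the gene start. In AT2G15960 there were 2 evening elements, at −108 and −43, and a G-box at −135, and the first bases of its window belong to a tRNA gene on the other strand. The window of *MEE14* had 1 evening element, 1 W-box core and 2 I-boxes, and that of AT2G05540 had 1 I-box. The evening element was present before 16 of the 168 expressed protein-coding genes of the region (9.52%), and before 1293 of 26711 listed protein-coding genes of the nuclear genome (4.84%). The listed genes include genes without expression, and the share among expressed genes elsewhere was not computed. The evening element stood before 4 of the 17 protein-coding genes of the region that fell (23.5%) and 5 of the 49 that rose (10.2%). Those that fell were *MEE14*, AT2G15960, *VPS2.1* and *ALDH6B2*, and those that rose were *AGP9*, *KCS8*, *PLA2-ALPHA*, AT2G10931 and AT2G11910. The W-box core stood before 42.9% of those that rose, 35.3% of those that fell and 45.0% of all, the as-1 core before 16.3%, 11.8% and 18.6%, the I-box before 10.2%, 17.6% and 12.2%, and the G-box before 2.04%, 5.88% and 6.58%. These are matches of letters in a window, and no binding was measured.

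The region is made mostly of pseudogenes, and few of them were expressed. By the annotation, 349 of its genes are protein-coding, of which 168 (48.1%) were expressed, whereas 77.0% of the 3751 protein-coding genes of the rest of Chr. 2 were. A further 627 are pseudogenes, most of them without a note on their origin, and 41 of these (6.54%) were expressed. Of 71 transcribed pseudogenes, 9 (12.7%) were expressed, and the 16 genes without a match in the annotation had no counts. Altogether 723 of the 1063 genes had 0 counts in all libraries. Regions of 5 Mb around the centromeres of chromosomes 1, 3, 4 and 5 had 27.9%, 12.6%, 25.8% and 24.7% of their genes expressed, so the Chr. 2 region lay within their range. Its expressed genes had a median FPKM of 7.25, against 11.8 in the rest of Chr. 2 (FPKM, counts per kilobase of exon, scaled to the total of the library, mean of the 6 libraries). Near-identical copies elsewhere in the genome were found for 9.63% of the expressed genes of the region and 2.38% of those of the rest of Chr. 2, and the counts of those genes are uncertain.

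The median ratio of *flpl1* to Col-0 over the region lay between that of the rest of Chr. 2 and that of the other chromosomes. This did not hold in each window along the region, as given below. The median *flpl1* to Col-0 ratio of the region was 1.27 (quartiles 0.762 and 2.25), and that of the rest of Chr. 2 was 1.41 (quartiles 0.889 and 2.55). Relative to the median of the other chromosomes these ratios were 1.41 and 1.58. If the RNA of a gene followed its copy number, 3 copies in place of 2 would give 1.5, but copy number was not measured in these libraries. The regions around the centromeres of chromosomes 1, 3, 4 and 5 had medians of 0.912, 0.849, 0.773 and 0.904.

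The same was seen in each library. The median log2 level of the region, relative to the Col-0 mean, was 0.243, 0.207 and 0.322 in the *flpl1* plants, against −0.154, 0.108 and −0.007 in the Col-0 plants. The level of the rest of Chr. 2 was subtracted within each library, which removes the scaling. The difference was −0.208, −0.210 and −0.193 in *flpl1*, against −0.051, 0.032 and −0.002 in Col-0, without overlap. The Col-0 values lie near 0 by construction, because the mean of the Col-0 plants is the reference. The means were −0.204 ± 0.010 and −0.007 ± 0.042 (SD, n = 3 each), a difference of −0.197 on the log2 scale between *flpl1* and Col-0 (two-sided exact permutation test, p = 0.1, and 3 against 3 libraries cannot give a smaller p). Set against the 4 other centromere regions in the same way, the Chr. 2 region was higher by 0.494 in *flpl1* than in Col-0, and set against all of the other chromosomes by 0.443 (exact permutation test, p = 0.1 for both). For the rest of Chr. 2 the difference to the other chromosomes was 0.640. The permutations kept the Col-0 mean as the reference, so these tests show at most that the plants of a group were alike. They cannot show whether the region differed more than another set of Chr. 2 genes would.

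**Figure D1:**
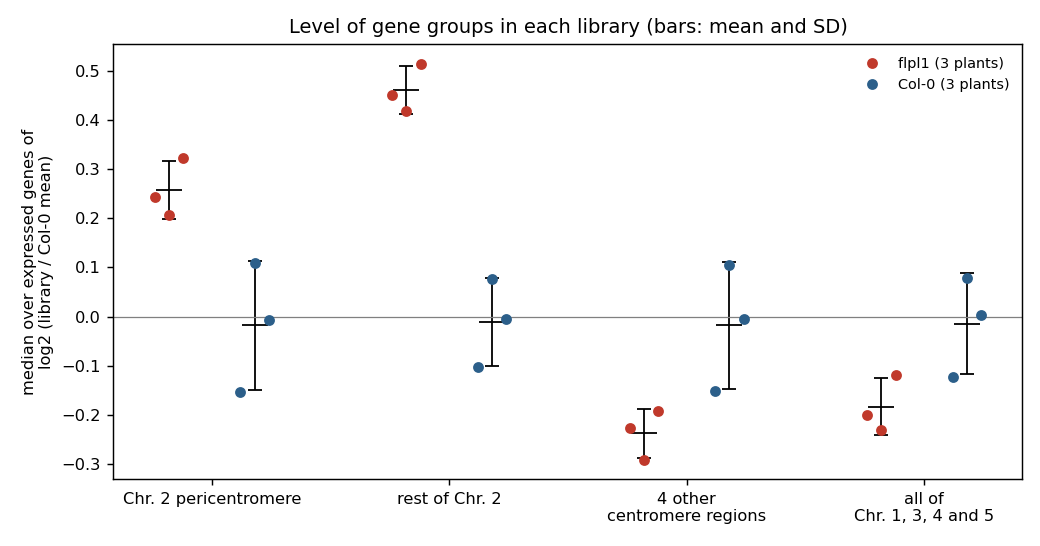
Median over expressed genes of the log2 level of each library relative to the Col-0 mean, for the Chr. 2 pericentromere, the rest of Chr. 2, the 4 other centromere regions and all of the other chromosomes. Points are plants (*flpl1* red, Col-0 blue) and bars show the mean and SD of 3 plants. The 3 *flpl1* points of the Chr. 2 pericentromere (0.207 to 0.322) lie above the Col-0 points and below the *flpl1* points of the rest of Chr. 2 (0.418 to 0.514).

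The difference was also seen within protein-coding genes and within classes of level. Over protein-coding genes only, the level of the region minus that of the rest of Chr. 2 differed by −0.212 on the log2 scale between *flpl1* and Col-0, with −0.225, −0.223 and −0.219 in *flpl1*, against −0.074, 0.043 and 0.000 in Col-0. Within protein-coding genes of 1 to 10 FPKM the difference was −0.238, and within those of 10 FPKM or more it was −0.126 (exact permutation test, p = 0.1 for each of the 3). In that highest class the median ratio was 1.26 for 92 genes of the region and 1.31 for 1579 genes of the rest of Chr. 2. From 1 to 10 FPKM it was 1.34 for 46 genes and 1.61 for 857 genes. Below 1 FPKM, the 30 expressed protein-coding genes of the region had a median ratio of 0.845 and the 451 of the rest of Chr. 2 one of 1.97. The pseudogenes of both types went the other way, with a difference to those of the rest of Chr. 2 of 0.325 that overlapped between the groups (exact permutation test, p = 0.2). The limit given above for tests with the Col-0 mean as the reference holds for these tests too.

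Single genes of the region spread widely around these medians. The ratio was over 1.8 for 70 of the 218 expressed genes (32.1%), from 1.2 to 1.8 for 43 (19.7%), from 0.8 to 1.2 for 47 (21.6%) and under 0.8 for 58 (26.6%). In the rest of Chr. 2 the shares were 38.3%, 20.5%, 20.2% and 20.9% in the same order. In the 4 other centromere regions together 45.5% of the expressed genes had a ratio under 0.8 and 21.8% one over 1.8.

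**Figure D2:**
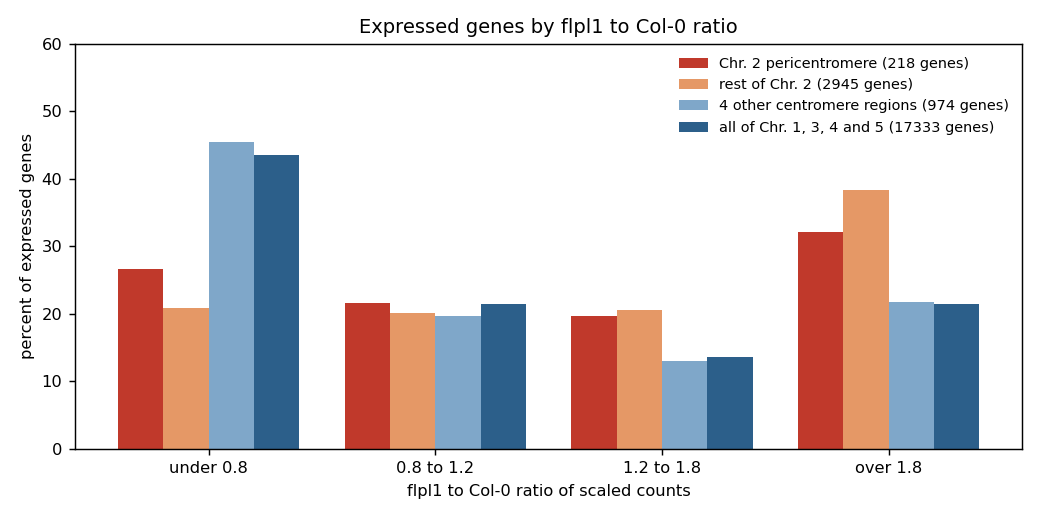
Percent of expressed genes by *flpl1* to Col-0 ratio of scaled counts, for the Chr. 2 pericentromere (218 genes), the rest of Chr. 2 (2945), the 4 other centromere regions (974) and all of the other chromosomes (17333). In the region 32.1% of the genes lie over 1.8 and 26.6% under 0.8, against 38.3% and 20.9% in the rest of Chr. 2.

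Along the region the ratio differed between windows. On the side of the short arm, from 2.0 to 3.2 Mb, 48 of 276 genes were expressed, with a median ratio of 1.42. From 3.6 to 4 Mb 4 of 85 genes were expressed, too few for a median. From 4 to 5 Mb 31 of 231 genes were expressed, with a median ratio of 1.71 and a median level of 1.38 FPKM. Farther along, 50 genes from 5 to 6 Mb had 1.15 and 85 genes from 6 to 7 Mb had 1.06. The windows of 1 Mb in the rest of Chr. 2 had medians between 1.31 and 1.64, so the window from 4 to 5 Mb lay above all of them and those from 5 to 7 Mb lay below all of them. The window next to the region, from 7 to 8 Mb, had 1.46. These windows were not tested against each other.

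**Figure D3:**
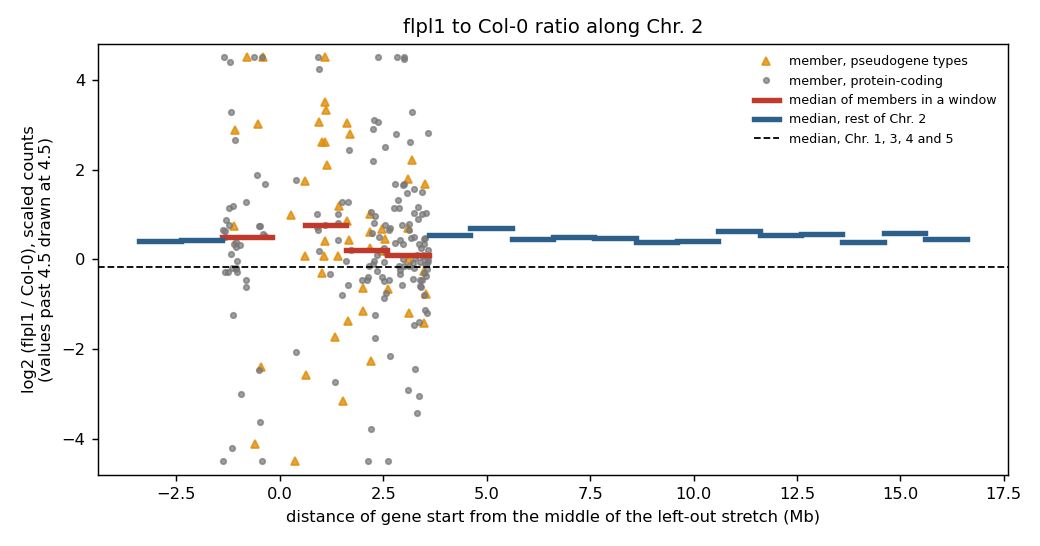
Log2 ratio of *flpl1* to Col-0 of the expressed genes of the region against the distance of the gene start from the middle of the left-out stretch (points, values past 4.5 drawn at 4.5, and genes without counts in a group at the edge), with the median of each window (red, the region, without the window of 4 genes; blue, the rest of Chr. 2; dashed, the other chromosomes). The red window from 4 to 5 Mb (1.71) is the highest of the windows drawn, and those from 5 to 6 Mb (1.15) and 6 to 7 Mb (1.06) are the lowest.

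As a sum, the counts on the region were 1.40, 1.47 and 1.58% of those on the other chromosomes in *flpl1*, against 1.24, 1.24 and 1.22% in Col-0, without overlap. The ratio of the means was 1.204 (exact permutation test, p = 0.1), and for the rest of Chr. 2 it was 1.39. A few genes weigh heavily in this sum. *AGT*, the aminotransferase that turns glyoxylate into glycine in photorespiration, took 14.2, 14.2 and 14.6% of the counts of the region in *flpl1*, against 22.5, 21.3 and 24.3% in Col-0. AT2G10940 went the other way, with 28112, 23417 and 16632 counts in *flpl1*, against 222, 0 and 19 in Col-0. The photosystem gene *PSBX* was also higher in *flpl1*. Without these 3 genes, which had the most counts, the ratio was 1.13 and the groups overlapped (exact permutation test, p = 0.2). A ratio without AT2G10940 alone was not computed.

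Of the 218 expressed genes, 173 passed the filter on low counts and were tested. In *flpl1*, 57 of them (32.9%) rose at least 1.5-fold in edgeR's quasi-likelihood test, with an adjusted p below 0.05, where 25.7% of all 18617 tested genes rose, and 21 (12.1%) fell, where 26.5% of all tested genes fell. In the rest of Chr. 2 43.7% of 2670 tested genes rose and 11.9% fell. At 2-fold, 44 genes of the region rose (25.4%, against 18.9% of all tested genes) and 14 fell (8.09%, against 15.8%). All 3 *flpl1* libraries were above the 3 Col-0 libraries for 82 of the 173 genes (47.4%, against 32.4% of all tested genes and 53.3% in the rest of Chr. 2) and below them for 34 (19.7%, against 35.3% and 15.4%). The median log2 fold change was 0.28 in the region, 0.49 in the rest of Chr. 2 and −0.07 over all tested genes.

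Genes of photosynthesis, the chloroplast and photorespiration were among the highest of the region. Of 9 genes in this list, all tested, 3 rose and 1 fell, with a median log2 fold change of 0.45. For this and the lists below, 25.7% of all tested genes rose and 26.5% fell. In the region these shares were 32.9% and 12.1%. The lists are short and were not tested as sets. *PSBX*, a small subunit of photosystem II, had 1577, 1607 and 1528 FPKM in *flpl1* and 905, 485 and 652 FPKM in Col-0, and rose by 1.29 on the log2 scale (SE 0.24, adjusted p = 0.00209). It is not in the list and is named as 1 of the 10 highest genes. Outside the region the leaf markers *RBCS1A* and *CAB3* were higher in *flpl1* too (*CAB3* 5088 to 6148 FPKM, against 1216 to 3763 FPKM in Col-0), while *RCA* overlapped, and their part in these values was not tested. *AGT*, the highest by the mean of the 6 libraries, had 1032, 1087 and 1189 FPKM in *flpl1*, each below the 1522, 1456 and 1627 FPKM of Col-0, with a log2 fold change of −0.40 that did not pass (adjusted p = 0.0744). *PGR5*, needed for cyclic electron flow around photosystem I, had 355, 337 and 377 FPKM in *flpl1* and 280, 246 and 270 FPKM in Col-0, and its log2 fold change of 0.51 stayed under 1.5-fold. With scaling factors taken from the other chromosomes by TMM it was 0.67 and passed.

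*TIC21*, part of the protein import machinery of the inner chloroplast membrane, rose to 83.9, 80.1 and 67.5 FPKM in *flpl1*, against 40.9, 40.2 and 38.8 FPKM in Col-0. It shares 51 bp with AT2G15280 on the other strand. AT2G14880, a SWIB/MDM2 domain protein, rose by 1.69 on the log2 scale (SE 0.26, adjusted p = 0.000824), with 105, 72.0 and 64.3 FPKM in *flpl1* and 20.4, 35.4 and 23.4 FPKM in Col-0. AT2G15690, a TPR-like protein, rose by 1.01, but it shares 647 bp with *CML30* on the other strand, and the use of the strand in counting is not stated. *MEE14* fell to 71.0, 77.9 and 48.0 FPKM in *flpl1*, against 218, 138 and 101 FPKM in Col-0 (log2 fold change −1.13, adjusted p = 0.0113).

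In the list of central, lipid, sulfur and nitrogen metabolism 12 genes were tested, of which 4 rose and 2 fell, with a median log2 fold change of −0.17. *MOD1*, the enoyl reductase of fatty acid synthesis in plastids, had 50.8, 48.1 and 34.8 FPKM in *flpl1* and 9.35, 6.57 and 6.57 FPKM in Col-0, and rose by 2.65 on the log2 scale (SE 0.21, adjusted p = 6.2e-05). *KCS8*, a ketoacyl-CoA synthase of very-long-chain fatty acids, had 18.4, 36.9 and 24.8 FPKM in *flpl1* and 6.69, 3.38 and 3.67 FPKM in Col-0. It shares 212 bp at 99.1% identity with AT2G15120, so its counts are uncertain. The phospholipase *PLA2-ALPHA* rose by 1.88, and *CAS1*, which makes the first sterol precursor, rose by 0.74. *MGDC*, a galactolipid synthase used in phosphate starvation, fell by 2.73 on the log2 scale, but its groups overlapped, with 0.86, 2.13 and 3.85 FPKM in *flpl1* and 3, 20.9 and 24.4 FPKM in Col-0. The aldehyde dehydrogenase gene *ALDH6B2* fell by 0.75.

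The highest genes of that list did not pass. *APK*, which makes the activated sulfate for sulfated metabolites, had 211, 238 and 279 FPKM in *flpl1* and 245, 341 and 318 FPKM in Col-0. *NIR1*, the nitrite reductase of nitrate assimilation, had 218, 185 and 149 FPKM in *flpl1* and 106, 240 and 144 FPKM in Col-0. The aconitase *ACO3* had 99.6, 114 and 149 FPKM in *flpl1* and 107, 177 and 181 FPKM in Col-0. In all 3 the groups overlapped, with log2 fold changes of −0.23, 0.25 and −0.28.

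Cell wall genes held some of the largest rises. Of the 6 tested genes of the list 3 rose and 1 fell, with a median log2 fold change of 2.90. *XTH4*, an enzyme that cuts and rejoins the xyloglucan of the wall, had 40.0, 78.1 and 43.8 FPKM in *flpl1* and 2.88, 0.32 and 0.89 FPKM in Col-0, and rose by 5.36 on the log2 scale (SE 0.64, adjusted p = 0.000287). The arabinogalactan protein gene *AGP9*, whose promoter is printed with the motifs, had 29.3, 32.3 and 29.2 FPKM in *flpl1* and 2.20, 1.08 and 1.07 FPKM in Col-0, and rose by 4.45 (SE 0.29, adjusted p = 3.63e-05). *XYP2*, which codes for a xylogen protein, had 9.70, 7.26 and 5.19 FPKM in *flpl1* and at most 0.16 FPKM in Col-0, from 5, 2 and 1 counts. *FUT4*, a fucosyltransferase that acts on arabinogalactan proteins, fell to 0.98, 0.85 and 2.33 FPKM in *flpl1*, against 14.8, 20.7 and 11.9 FPKM in Col-0 (log2 fold change −3.42, adjusted p = 0.000248). The other 2 tested genes, *TBL13* and *XTH10*, had log2 fold changes of 0.37 and 1.35 with adjusted p of 0.064 and 0.0972.

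Of the 6 tested genes of the defense list 2 rose and 2 fell, where 25.7% of all tested genes rose and 26.5% fell. The median log2 fold change of the list was −0.09. *LURP1*, which is needed for defense against the downy mildew *Hyaloperonospora*, had 93.6, 307 and 588 FPKM in *flpl1* and 40.3, 42.2 and 68.8 FPKM in Col-0, a rise of 2.79 on the log2 scale (SE 0.59, adjusted p = 0.00393). The *flpl1* plants differed widely among themselves in this gene. *PR1*, a marker of the salicylic acid response, had 1.58, 1.51 and 8.89 FPKM in *flpl1* and 0, 0 and 0.20 FPKM in Col-0, from 29, 23 and 150 counts against 0, 0 and 3 counts. The third *flpl1* plant was the highest in both genes, and without it the rises were 2.07 for *LURP1* and 4.61 for *PR1*, both still called. In Col-0 the counts of *PR1* came from the third plant alone. Without that plant Col-0 had 0 counts, so the fitted log2 fold change of 9.16 depends on how the fit treats 0 and does not measure a size. With all plants the ratio of the summed counts of *PR1* was 72.3, with an exact 95% interval of 24.4 to 354 that covers counting error only. *UGT73B5*, a glucosyltransferase of the pathogen response, fell by 3.04 (SE 0.40, adjusted p = 0.000423), with 0.86, 1.25 and 2.75 FPKM in *flpl1* and 10.8, 16.6 and 15.1 FPKM in Col-0. The tables place it over 1866 bp of its neighbour *UGT73B4* on the same strand, so their reads cannot be fully separated. The TIR-NBS-LRR gene AT2G14080 fell by 0.85, and *SERK4*, a coreceptor kinase of brassinosteroid and immune receptors, had a log2 fold change of 0.09.

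Most genes of transcription, RNA processing and chromatin did not pass. Of 9 tested genes 2 rose and 1 fell, with a median log2 fold change of 0.32. *NRPB3*, a subunit of RNA polymerase II, had 18.1, 17.0 and 17.0 FPKM in *flpl1* and 8, 8.89 and 7.49 FPKM in Col-0, and rose by 1.17 on the log2 scale (SE 0.14, adjusted p = 0.000273). *ABH1*, the large subunit of the nuclear cap-binding complex, rose by 0.59 and stood at the 1.5-fold limit, under which it fell without the third *flpl1* or the first Col-0 plant (0.57 and 0.51). The RING protein gene AT2G15580 fell by 0.59 but did not pass with TMM (−0.53) or with DESeq2 (−0.53). The chromatin remodeler *CHR5* had 20.9, 19.8 and 22.4 FPKM in *flpl1* and 18.2, 30.1 and 26.1 FPKM in Col-0, with overlapping groups. The MADS-box gene *AGL44*, known from nitrate signaling in roots, had 0 counts in each *flpl1* library and 9, 41 and 35 counts in Col-0. It was removed by the filter and has no test; with 3 counts set for *flpl1* as a whole it was at least 26.4-fold lower in *flpl1*.

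Of the 5 genes of vesicle traffic and organelle division none rose and 2 fell, where 25.7% of all tested genes rose and 26.5% fell. The median log2 fold change of the list was −0.33. *ARFB1A*, a small GTPase of the ARF family, had 3.21, 3.99 and 4.26 FPKM in *flpl1* and 8.51, 12.7 and 12.1 FPKM in Col-0 (log2 fold change −1.46, adjusted p = 0.000866). *VPS2.1*, a subunit of the ESCRT-III membrane scission complex, fell by 0.61, with 58.6, 56.9 and 60.1 FPKM in *flpl1* and 90.0, 96.8 and 96.2 FPKM in Col-0, and fell short of 1.5-fold with TMM (−0.54) or DESeq2 (−0.54). The vacuolar sorting receptor genes *VSR4* and *VSR3*, which are neighbours in the region, had log2 fold changes of −0.33 and 0.44. With TMM factors from the other chromosomes *VSR3* had 0.61 and passed. *VSR4* has a partial copy of 398 bp on Chr. 4, and its counts are uncertain.

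Of the 5 tested genes for glycine-rich, hormone and stress response proteins 3 rose and none fell, with a median log2 fold change of 1.5. AT2G14900, of the gibberellin-regulated family, had 43, 49 and 44 counts in *flpl1*, against 0, 0 and 2 counts in Col-0, and rose by 5.93 on the log2 scale (SE 0.76, adjusted p = 0.000367). The ratio of its summed counts, 73.0, had an exact 95% counting interval of 19.8 to 609. Its Col-0 counts came from the third plant alone. Without that plant Col-0 had 0 counts, and the fitted log2 fold change of 8.60 does not measure a size. *HB1*, a plant hemoglobin that scavenges nitric oxide, had 1.87, 3.37 and 2.14 FPKM in *flpl1* and 0.53, 0.20 and 0.37 FPKM in Col-0, a rise of 2.79. The calmodulin-like gene *CML30* rose by 1.5, with the overlap given for AT2G15690. *GRP-3*, whose protein binds a wall-associated kinase, had 522, 670 and 766 FPKM in *flpl1* and 751, 219 and 345 FPKM in Col-0. Its groups overlapped through the first Col-0 plant, without which its log2 fold change was 1.30 and passed. *COR413-PM1*, a cold-regulated membrane protein gene, had 251, 243 and 223 FPKM in *flpl1* and 326, 232 and 240 FPKM in Col-0.

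The largest rise of all was in a gene outside these lists. AT2G10940, annotated as a lipid-transfer and 2S albumin family protein, starts at 4310412 and had 690, 690 and 443 FPKM in *flpl1* and 5.33, 0 and 0.58 FPKM in Col-0. In counts these were 28112, 23417 and 16632 in *flpl1*, against 222, 0 and 19 in Col-0, and the log2 fold change was 8.32 (SE 1.31, adjusted p = 0.000971). AT2G05790, of glycosyl hydrolase family 17, had 67.6, 71.2 and 72.1 FPKM in *flpl1* and 7.56, 0.63 and 2.37 FPKM in Col-0, a rise of 4.39. The ARM repeat gene AT2G05810, which follows it among the expressed genes of the region, rose by 3.27. The first Col-0 plant was the highest Col-0 plant in all 3 genes and in *XTH4*. Without it the log2 fold changes of AT2G10940, AT2G05790 and *XTH4* were 11.21, 5.66 and 6.60.

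Among the falls, AT2G05540, a glycine-rich protein gene, had 1.10, 1.98 and 0.77 FPKM in *flpl1* and 176, 56.9 and 53.3 FPKM in Col-0 (log2 fold change −6.15, SE 0.62, adjusted p = 0.000139). It lies next to *GRP-3* among the expressed genes, at the short-arm end of the region. *ELF4-L3*, a relative of the clock gene *ELF4*, fell to 1.77, 2.77 and 2.31 FPKM in *flpl1*, against 16.6, 22.8 and 18.8 FPKM in Col-0. AT2G15020, of unknown function, had 18.7, 14.4 and 17.0 FPKM in *flpl1* and 131, 117 and 148 FPKM in Col-0, with a log2 fold change of −2.90 and the smallest adjusted p among the falls (2.84e-05). AT2G15960, annotated as stress-induced, had 272, 281 and 281 FPKM in *flpl1* and 864, 643 and 515 FPKM in Col-0 (log2 fold change −1.20). AT2G13660 fell by 1.70 from few counts, 13, 4 and 6 in *flpl1*, against 26, 24 and 29 in Col-0, and its adjusted p was 0.0517 to 0.0583 without the second or the third *flpl1* plant or the third Col-0 plant.

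**Figure D4:**
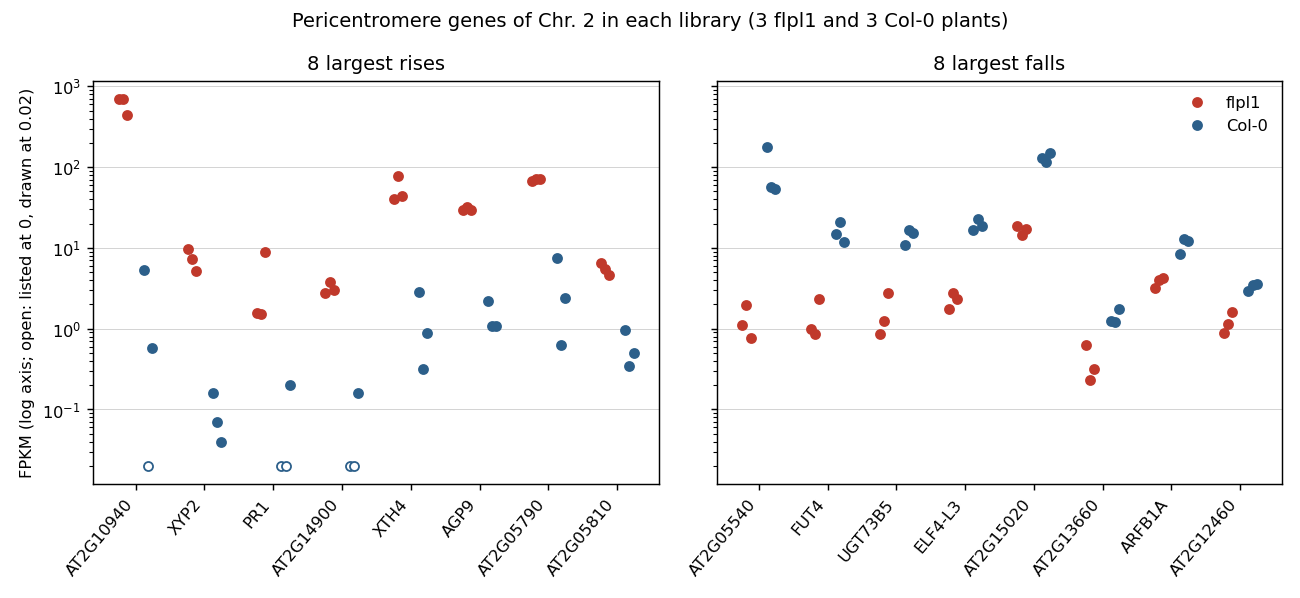
FPKM in each library, on a log axis, of the 8 genes that rose most and the 8 that fell most, out of those without overlap between groups and with at least 1 FPKM in each library of the higher group (*flpl1* red, left; Col-0 blue, right; open points are listed at 0 and drawn at 0.02). AT2G10940 has 443 to 690 FPKM in *flpl1* and at most 5.33 FPKM in Col-0.

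Pseudogenes in such regions are often remains of transposons. All 698 of the region, the transcribed ones included, together had 493, 402 and 511 counts per 1000000 counts on the other chromosomes in *flpl1*, against 341, 379 and 346 in Col-0, a ratio of 1.32 (exact permutation test, p = 0.1). *SADHU1-1*, a member of a non-coding retrotransposon family, had by far the most counts, with 3059, 1997 and 3015 in *flpl1*, against 3016, 2851 and 2307 in Col-0, and a log2 fold change of 0.08. Without it the pseudogenes of the region had a ratio of 1.498. That sum still holds AT2G06950, a pseudogene described below that rose by 3.03 on the log2 scale. A ratio without both genes was not computed. The pseudogenes of the 4 other centromere regions had 721, 628 and 745 in this unit in *flpl1*, against 738, 756 and 682 in Col-0, a ratio of 0.963, and those of the rest of Chr. 2 had a ratio of 0.861.

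Of 21 tested pseudogenes 6 rose and 3 fell, and of 7 tested transcribed pseudogenes 2 rose and 1 fell. Together these were 28.6% and 14.3%, against 36.9% and 21.5% of 65 tested in the 4 other centromere regions and 22.2% and 40.7% of 27 in the rest of Chr. 2. The following were chosen after their values were seen. AT2G06950 had 1279, 676 and 803 counts in *flpl1*, against 137, 92 and 125 in Col-0, and rose by 3.03 on the log2 scale (SE 0.25, adjusted p = 6.84e-05). AT2G10980 had 278, 181 and 122 counts in *flpl1*, against 26, 24 and 24 in Col-0, a rise of 3.05. Neighbours between 4491277 and 4512287 also rose, AT2G11300 by 2.61, AT2G11320 by 3.51 and AT2G11330 by 3.37. Their counts were low, for AT2G11320 37, 36 and 71 in *flpl1*, against 3, 3 and 7 in Col-0, and 110 bp of AT2G11320 match a gene of Chr. 3 at 96.4% identity. AT2G09960 had 0 counts in *flpl1*, against 31, 13 and 9 in Col-0, at least 16.5-fold lower in *flpl1* with 3 counts set for the group. AT2G12460 fell to 35, 37 and 58 counts in *flpl1*, against 119, 130 and 113 in Col-0.

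The genes without clear expression had fewer counts in *flpl1*. Of the 845 genes under 10 summed counts, 122 had at least 1 count. Of these, 24, 26 and 32 were seen in the *flpl1* plants, against 43, 46 and 43 in the Col-0 plants (exact permutation test, p = 0.1), with 41, 47 and 45 counts in *flpl1*, against 69, 89 and 81 in Col-0. Counts in *flpl1* only were found for 25 of them and in Col-0 only for 67. The direction was the same in the 4 other centromere regions, where 89, 67 and 92 such genes had a count in *flpl1*, against 166, 193 and 187 in Col-0 (exact permutation test, p = 0.1). The groups overlapped in the rest of Chr. 2, where a count was seen for 102, 91 and 125 in *flpl1*, against 132, 125 and 113 in Col-0 (exact permutation test, p = 0.3). The third Col-0 plant had the fewest total counts (19465078), and the second *flpl1* plant the fewest counts on the other chromosomes (16088437). The part of depth in these numbers was not tested. Among the expressed genes of the region, AT2G05580, AT2G06550, AT2G07230 and AT2G11290 had counts in *flpl1* only, and AT2G07140, AT2G09960, AT2G13350 and *AGL44* in Col-0 only (8 genes named after their values were seen).

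**Figure D5:**
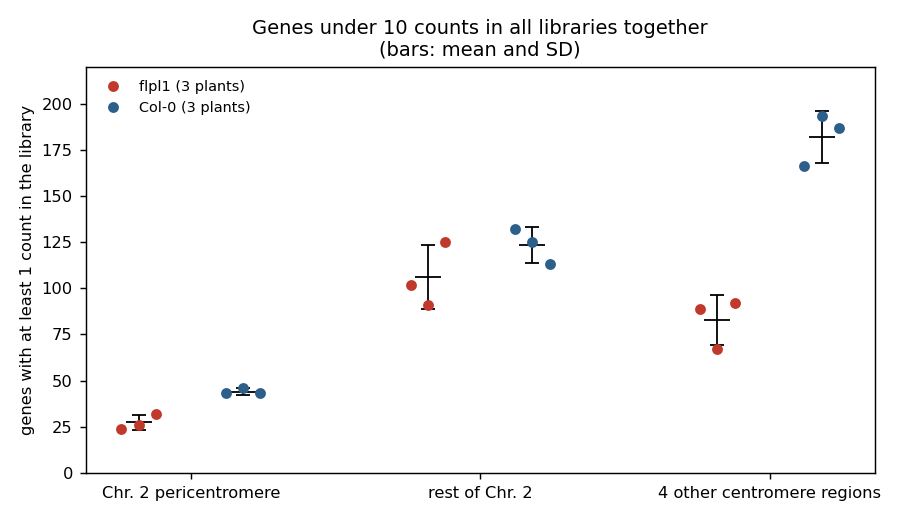
Number of genes with at least 1 count in each library, among genes with under 10 counts in all libraries together. Points are plants (*flpl1* red, Col-0 blue) and bars show the mean and SD. In the Chr. 2 pericentromere the *flpl1* libraries have 24 to 32 such genes and the Col-0 libraries 43 to 46, and in the 4 other centromere regions 67 to 92 and 166 to 193.

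Genes that act on the silencing of heterochromatin lie outside the region and were counted as a list. The list includes *ROS1*, which removes DNA methylation. Of 14 such genes 6 rose at least 1.5-fold (*DDM1*, *MET1*, *CMT3*, *CMT2*, *NRPE1* and *AGO4*) and 1 fell (*HDA6*), where 25.7% of all tested genes rose and 26.5% fell. *NRPE1* and *AGO4* lie on Chr. 2, and in the rest of Chr. 2 43.7% of tested genes rose. The median log2 fold change of the 14 genes was 0.45. Their part in the values of the region was not tested.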

How the data were processed

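RNA-seq libraries of 3 *flpl1* and 3 Col-0 plants were grouped by the sample labels, and replicate numbers only name plants. The authors trimmed reads with Cutadapt (1.9.1), aligned them to TAIR10 with Hisat2 and made the deposited read count of each gene with HTSeq (0.6.1); the counts are not normalized. The deposited FPKM divides that count by exonic gene size and by the sum of counts, and 100% of the values were within 0.01 of this. Strand use and the handling of multiply mapped reads are not given in the sources used here.

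Counts were divided by their sum over chromosomes 1, 3, 4 and 5. Genes with at least 10 summed counts were called expressed, and their ratio is that of group means. Levels per library are medians of the log2 ratio of scaled counts (per 1000000, with 0.1 added) to the Col-0 mean. They were compared by exact permutation tests that kept this Col-0 mean. All genes passing filterByExpr (18617) were tested with edgeR 4.0.16 (R 4.3.3) with the same sums as library sizes and Benjamini-Hochberg adjustment, and called at an adjusted p under 0.05 and 1.5-fold (or 2-fold). The SE given with a log2 fold change is its absolute value divided by the square root of the F statistic of that test. The fit was tested on simulated data. The biological coefficient of variation was 22.6%, and 3 plants a group set the precision.

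Gene types, symbols and promoters came from the RefSeq annotation of TAIR10.1, in which 1047 of the 1063 genes were found. Of 31545 matched genes 31544 overlapped their deposited position and 9647 had the same start and end, so gene starts and overlaps depend on the annotation used. Near-identical copies were BLAST 2.17.0 matches of at least 100 bp with 95% identity. Named were the 8 largest rises and falls without overlap between groups and with at least 1 FPKM in each library of the higher group, the 10 highest genes, and the highest or 2-fold changed genes of the lists. The region, the lists and the tests were chosen with earlier results of these data known.

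Alternatives were TMM on all genes or on chromosomes 1, 3, 4 and 5, DESeq2 1.42.0, other filters, pseudocounts and sums, the replicate block, and each plant left out. Leaving out genes with near-identical copies was added after seeing the data. Python 3.11.15 was used for the rest.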

Additional observations from a re-analysis of the deposited data

How the results depend on the processing

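Over all settings 54 to 73 genes of the region rose and 15 to 27 fell, against 57 and 21. The most rises and the fewest falls (73 and 15) came with TMM factors from chromosomes 1, 3, 4 and 5, and DESeq2 gave 69 and 20. Of 552 values for 46 named genes under up to 12 settings, 528 kept their direction and side of the threshold, 14 lost and 3 gained a call, and 7 changed sign, all in genes without a call. With TMM factors from chromosomes 1, 3, 4 and 5 *COR413-PM1* had 0.08 (against −0.08) and *CHR5* 0.03 (against −0.15). With each plant left out in turn *COR413-PM1* ranged from −0.17 to 0.10, *CHR5* from −0.33 to 0.00 and *SERK4* (0.09) from −0.20 to 0.43. The median ratio of the region was 1.02 with genes of at least 1 summed count, 1.41 with the median of chromosomes 1, 3, 4 and 5 set to 1, 1.195 with the sum over all genes and 1.204 over protein-coding genes. For the rest of Chr. 2 it was 1.58 with that median set to 1 and 1.33 with the sum over all genes. The first of these changes adds genes of 1 to 9 counts, and the cause of the others was not tested. With each plant left out in turn, the medians ranged from 1.22 to 1.33 in the region and from 1.37 to 1.46 in the rest of Chr. 2. The rises then ranged from 54 to 61, the falls from 16 to 27, the level of the region minus that of the rest of Chr. 2 from −0.214 to −0.18, and the ratio of summed counts from 1.17 to 1.24. Over the other alternatives that level difference ranged from −0.423 (genes of at least 1 count) to −0.173 (pseudocount 1), and the ratio of summed counts from 1.13 to 1.34. Without genes with near-identical copies, an alternative added after seeing the data, the median ratio was 1.25 and the level difference −0.206.

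The replicate numbers did not pair the plants, since same-numbered plants had correlations of 0.0266, −0.127 and 0.103 in their deviations from the group means. With the replicate number as a block, 54 genes rose and 20 fell, the level difference was −0.197 and the ratio of summed counts 1.203, no named gene changed its call, and AT2G10940 moved to 9.35. Leaving out the third *flpl1* plant moved the log2 fold changes of *FUT4* to −4.03, *UGT73B5* to −3.67 and *MGDC* to −3.35, and leaving out the first Col-0 plant moved those of *XYP2* to 7.02, *PR1* to 5.39 and AT2G05540 to −5.35, all still called. Leaving out the third Col-0 plant moved *PR1* to 9.16 and AT2G14900 to 8.60. It was the only Col-0 plant with counts of these genes, so these values rest on 0 Col-0 counts and do not measure a size. Most genes of the region could not be compared, as 723 of the 1063 genes had no counts.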
